A study of Mus musculus with 162 samples.

Results

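Ttr, Kl, Folr1, Clic6, Otx2, Aqp1, Slc4a5 and Enpp2 are 8 genes known for strong expression in the epithelium of the choroid plexus. They were taken by symbol from a count table of 53686 genes, and all 8 were found. The choroid plexus hangs into the ventricles of the brain, secretes the cerebrospinal fluid and forms the barrier between blood and that fluid. Its epithelial cells take up folate, hormones and vitamins from blood, move sodium, bicarbonate, chloride and water into the ventricle, and release carrier proteins. A plexus is found in the lateral ventricles and in the third and the fourth ventricle, and that of the fourth ventricle lies between the cerebellum and the medulla.

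The 18 mice were C57BL/6J males, 8 to 9 weeks old and without a genetic change. At each of 6 times 3 mice were used, fed at will (0 h) or fasted for 22, 18, 12, 8 or 2 h, and all mice were killed at the same clock time. Each mouse gave 9 organs, each sequenced as polyadenylated RNA, which made 162 libraries. The 4 brain dissections are the olfactory bulb (OB), the telencephalon with the diencephalon (BRN), the cerebellum (CBL) and the brain stem (BST: mesencephalon, pons and myelencephalon). Liver (LIV) stands beside them for Ttr, which hepatocytes also make, and stomach (STM), brown fat (iBAT), perigonadal white fat (pgWAT) and subcutaneous white fat (psWAT) are used for levels alone.

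Library totals ran from 8224940 to 17704828 counts in OB, from 3045845 to 12108290 in BRN, from 6487419 to 22071004 in CBL, from 6998492 to 11776354 in BST and from 6959200 to 12451777 in LIV. BRN 8 h replicate 3 held 130701 counts and BRN 18 h replicate 1 held 279848. These 2 libraries were left out, so BRN had 16 libraries and 2 each at 8 h and 18 h. The CBL 0 h libraries were the deepest of that dissection, with 20396385, 22071004 and 21497914 counts. Levels are counts divided by the library total and put on the usual CPM scale, and 3 counts, taken as the floor of detection, equal 0.136 to 0.985 CPM over the retained brain libraries. Floors cover counting error only.

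The dissections carried their own markers. Summed levels of 4 cerebellar genes (Gabra6, Cbln3, Pcp2 and Fat2) were 3119 to 3886 CPM in CBL and 11.9 to 262 CPM in BST. A sum over 5 hindbrain genes, led by the glycine transporter gene Slc6a5, was 404 to 692 CPM in BST and 27.7 to 49.8 CPM in CBL. A sum over 3 forebrain genes was 65.2 to 164.3 CPM in BRN and at most 25.9 CPM elsewhere in the brain, and a sum over 3 olfactory bulb genes was 398 to 591 CPM in OB and at most 66.96 CPM elsewhere. Some libraries stood apart. BST 0 h replicate 2 had the highest cerebellar sum of its dissection, 262 CPM, and the lowest hindbrain sum, 404 CPM. BRN 2 h replicate 3 and BRN 18 h replicate 2 were known from earlier work on these data to lie near CBL in overall profile. Their cerebellar sums were 1.26 and 4.92 CPM and their forebrain sums 164.3 and 78.1 CPM, which are values of BRN and not of CBL. OB 0 h replicate 3 held far more Ttr than the other OB libraries, and 8 of the 18 BST libraries held far less Ttr than the other 10.

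Ttr (chr18:20665280-20674321 on the plus strand of GRCm38) encodes transthyretin, the carrier of thyroid hormone and of retinol bound to its binding protein. In OB it measured 0.401 CPM in the lowest library, 1.51 CPM at the median and 345 CPM in the highest. BRN libraries ran from 478 to 1239 CPM with a median of 871 CPM, and CBL libraries from 653 to 5151 CPM with a median of 2439 CPM. BST libraries ran from 21.2 to 3539 CPM with a median of 1877 CPM. Ttr was above the floor in every library of the 4 dissections, and OB stood below all BRN and CBL libraries. LIV was higher than each brain library, at 5943 to 9054 CPM with a median of 7751 CPM. By mean log2 level the order was LIV, CBL, BRN, BST, STM, OB, pgWAT, psWAT and iBAT. Of these neighbours, LIV and CBL, CBL and BRN, and STM and OB differed by more than the larger SD among libraries, and the others did not. Outside brain and liver, Ttr had a median of 97.1 CPM in STM, and pgWAT 18 h replicate 2 reached 169.02 CPM where the median of that depot was 0.620 CPM.

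Kl and Folr1 act at the cell surface. Kl (chr5:150952607-150993817, plus) encodes klotho, which joins FGF receptors to form the receptor of FGF23. Its CPM was 1.34 at the lowest, 2.23 at the median and 7.39 at the highest in OB, and 3.81, 10.8 and 25.9 in BRN. In CBL these values were 12.1, 37.7 and 84.8 CPM, and in BST 5.56, 36.7 and 96.5 CPM. The ranges of CBL and BST overlapped, though 8 BST libraries were below all CBL libraries, and the order CBL, BST, BRN, OB showed a step beyond the SD only between BRN and OB. Folr1 (chr7:101858331-101870788, minus) encodes folate receptor alpha, which carries folate into the cerebrospinal fluid. It measured 3.20, 11.4 and 29.3 CPM in CBL and 0.267, 6.15 and 22.02 CPM in BST. In BRN the median was 3.12 CPM, and in OB 10 of 18 libraries were at or under the floor. By mean log2 level the order began with CBL, pgWAT, BST and BRN, without a step beyond the SD among these. STM and OB came after, with a step beyond the SD from BRN to STM. In pgWAT, 22 h replicate 2 held 133.4 CPM of Folr1 against a median of 4.68 CPM.

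Enpp2 (chr15:54838901-54952892, minus) encodes autotaxin, a secreted enzyme that makes lysophosphatidic acid, and it is also made by oligodendrocytes. Its lowest, median and highest levels were 110, 128 and 211 CPM in OB and 220, 329 and 597 CPM in BRN. They were 402, 835 and 1923 CPM in CBL and 521, 1055 and 2038 CPM in BST. The order was BST, CBL, pgWAT, BRN, psWAT, iBAT, OB, STM and LIV, and BST and CBL, BRN and psWAT, and each neighbour from iBAT on were closer than their SD.

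Slc4a5, Aqp1 and Clic6 belong to the transport of ions and water. Slc4a5 (chr6:83219828-83304945, plus), a sodium bicarbonate cotransporter gene, measured 4.90, 13.3 and 30.9 CPM in CBL and 0.776, 13.6 and 35.5 CPM in BST. Its median in BRN was 2.98 CPM, and 17 of 18 OB libraries were at or under the floor. CBL and BST did not differ beyond the SD, while BST and BRN did. Aqp1 (chr6:55336432-55348555, plus) encodes a water channel of the plexus and of red cells and vessels. It had another order, with 48.9, 63.7 and 83.3 CPM in OB against 2.04, 8.51 and 20.9 CPM in CBL and 0, 6.75 and 17.7 CPM in BST. Fat and OB came before LIV, STM and the other brain dissections, and iBAT was highest with a median of 479 CPM. Clic6 (chr16:92485736-92541243, plus), of the chloride intracellular channel family, measured 19.7, 41.5 and 85.2 CPM in CBL, 7.88, 17.9 and 26.99 CPM in BRN and 2.62, 25.2 and 63.7 CPM in BST. STM stood above all brain libraries in Clic6, with a lowest level of 153.97 CPM and a median of 566 CPM.

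Otx2 (chr14:48657677-48673819, minus) encodes a homeodomain transcription factor needed for the choroid plexus to form. It measured 14.4, 20.6 and 31.1 CPM in CBL, 0.533, 6.01 and 13.1 CPM in BST, 0.985, 2.93 and 7.62 CPM in BRN and 0.401, 0.854 and 1.91 CPM in OB. Each CBL library was above each BST library, and BST and BRN did not differ beyond the SD. LIV and STM gave 0 counts of Otx2 in all libraries. Exons of Otx2 overlap on the same strand with those of Gm49154, which is not in the count table, and exons of Enpp2 share 345 bases with the antisense gene Gm26684, at most 5.20 CPM in brain. Per kilobase of merged exon, the median CBL level was 2057 CPM for Ttr, 144.4 for Enpp2, 10.6 for Clic6, 4.97 for Folr1, 4.88 for Otx2, 4.05 for Kl, 3.24 for Aqp1 and 2.29 for Slc4a5.

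The brain stem libraries were divided. Ttr was 21.2, 22.1, 25.2, 25.8, 42.2, 57.5, 166.1 and 173 CPM in 8 of them, and 1861 to 3539 CPM in the other 10, with a gap of 3.42 in log2 and no library between. The low libraries were 2 of 3 at 0 h, 1 of 3 at 2 h, 3 of 3 at 8 h, 1 of 3 at 12 h, 1 of 3 at 18 h and 0 of 3 at 22 h. All BST libraries were sequenced in 1 lane. The SD of log2(CPM + 1) of Ttr among the 18 libraries was 3.00, the highest of 16784 genes kept in BST, where the median over all genes was 0.15. Of the other members, Clic6 ranked 4, Folr1 8, Aqp1 10, Kl 12, Slc4a5 17, Otx2 22 and Enpp2 67. With log2(CPM + 0.1) Ttr ranked 1, Folr1 7, Aqp1 9, Clic6 31, Otx2 39, Kl 44, Slc4a5 46 and Enpp2 308. Bulk counts cannot tell fewer cells of a type from less RNA per cell.

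The other members took the same libraries. For 6 of 8 members, Ttr included, the largest gap in BST parted the same 8 libraries from the other 10, as it did for 0.203% of the genes kept in BST. For 7 of 8 members, again with Ttr itself counted, which holds by construction, the 8 lowest libraries were those of Ttr, beside 0.411% of genes. These shares of genes were taken after the split was seen. Kl was 5.56 to 11.4 CPM in the 8 and 35.8 to 96.5 CPM in the 10. Clic6 was 2.62 to 5.97 CPM and 23.9 to 63.7 CPM. Aqp1 was parted likewise, from 0 to 1.54 CPM on the low side and from 6.71 to 17.7 CPM on the high side, and so did Folr1, at up to 1.49 CPM and from 5.34 CPM. Enpp2, whose low libraries still held 521 to 587 CPM, reached 1011 to 2038 CPM in the others. Otx2 was the member with another set of lowest libraries, since BST 0 h replicate 2, low in Ttr, held 6.15 CPM of Otx2. For Slc4a5 the largest gap set a single library apart, BST 18 h replicate 2 with 0.776 CPM, although its 8 lowest libraries were those of Ttr.

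**Figure D1:**
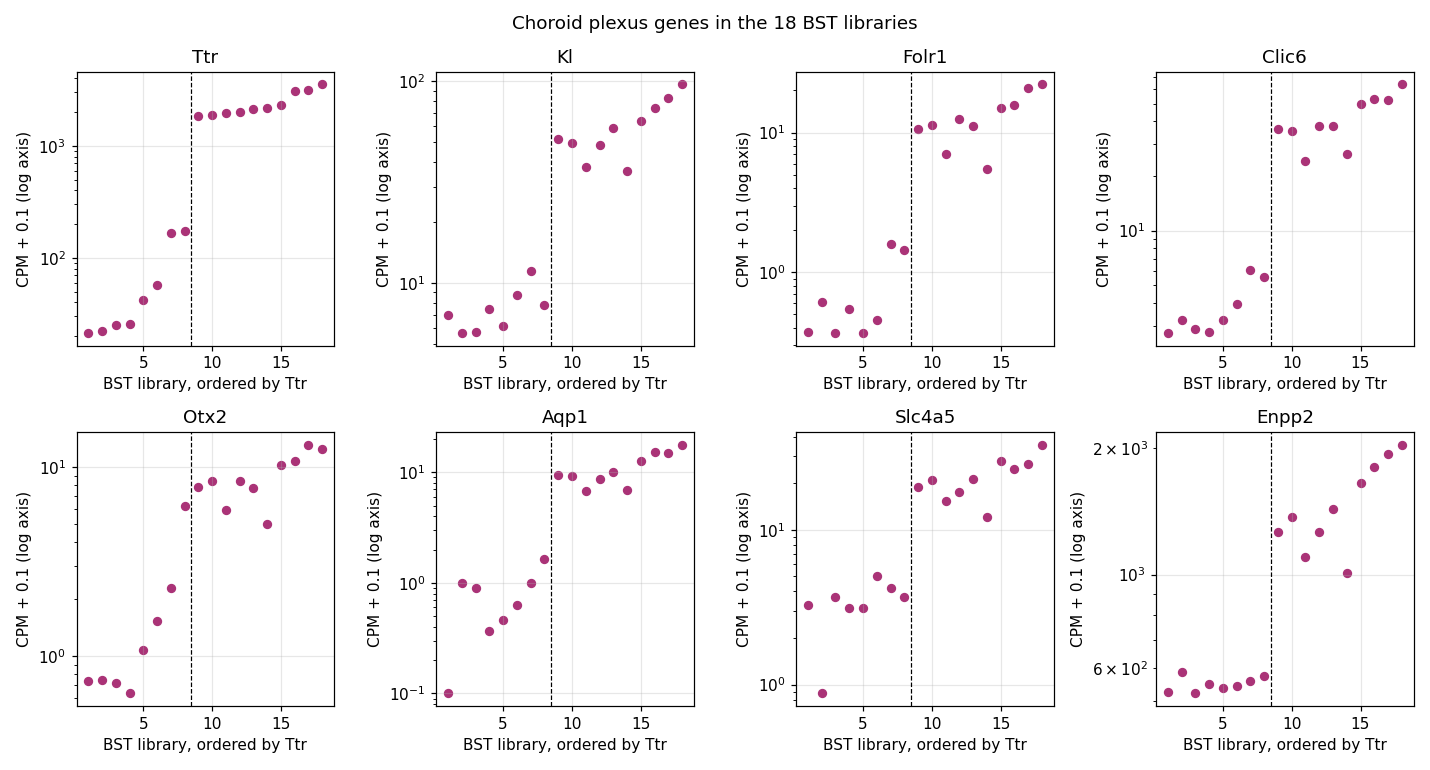
Level of each of the 8 genes (CPM + 0.1, log axis) in the 18 BST libraries, ordered from low to high Ttr, with a dashed line after the 8 lowest. For 7 of 8 genes the 8 libraries left of the line are the lowest, and Ttr steps from 173 to 1861 CPM at the line.

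Genes of the same epithelium behaved as the members did. In a list of 19 other choroid plexus genes, 17 had the same 8 lowest BST libraries as Ttr and 14 had their largest gap at the same place. The summed level of the list was 62.9 CPM at the lowest, 217 CPM at the median and 415 CPM at the highest in BST, and its most abundant gene, Igfbp2, ran from 30.5 to 86.0 CPM. Kcne2, a potassium channel subunit gene, ran from 0.0890 to 1.49 CPM in the 8 low libraries and from 11.8 to 27.8 CPM in the others. By the ratio of highest to lowest sum, the lists that follow had narrower ranges in BST, and the cerebellar genes, at 11.9 to 262 CPM, a wider one. The sum over 6 ependymal genes ran from 43.8 to 61.3 CPM with Foxj1 most abundant at 24.7 to 34.04 CPM, over 6 endothelial genes from 113.5 to 175 CPM, over 7 meningeal genes from 65.1 to 165.7 CPM and over 6 oligodendrocyte genes from 21688 to 25691 CPM. Red cell genes summed to 47.2 to 210 CPM, pineal genes to 0.288 to 1.25 CPM and hepatocyte genes to 0.857 to 5.12 CPM. The hindbrain genes Hoxa5 and Hoxb3 had 0 counts in all OB libraries. The part of dissection borders in the BST levels was not tested.

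By the animal number in the sample labels, the same mice could be followed from one dissection to another. Of the 8 mice with the lowest Ttr in BST, 6 were among the 8 mice with the highest Ttr in CBL. That overlap was taken after the split in BST was seen, and no expected overlap was computed. The mouse of 0 h replicate 2 had the highest CBL level of all, 5151 CPM, with 173 CPM in BST. The mouse of 8 h replicate 2 had 3389 CPM in CBL and the lowest BST level, 21.2 CPM. In contrast, the mouse of 18 h replicate 1 had 737 CPM in CBL and the highest BST level, 3539 CPM, and the 3 mice at 22 h had 653 to 1005 CPM in CBL and 1861 to 3165 CPM in BST. Exceptions were the mice of 2 h replicate 1 and 12 h replicate 1, high in both (2838 and 3213 CPM in CBL, 1893 and 1953 CPM in BST), and those of 8 h replicate 3 and 12 h replicate 3, low in BST (25.8 and 166.1 CPM) and not among the 8 highest in CBL (2173 and 2706 CPM). The mouse whose OB library held 345 CPM of Ttr, 0 h replicate 3, had 42.2 CPM in BST and 3325 CPM in CBL. Because BST libraries lay in separate clusters, no correlation was taken over all 18 mice. Within clusters of at least 6 mice, and for OB, BRN and CBL, 0 of 8 relations of Ttr between dissections passed a Benjamini-Hochberg adjusted p of 0.05 in permutation tests of Pearson's r or Spearman's rho, and 1 had an unadjusted p under 0.05. That one was OB with BRN over 16 mice (r = -0.587, permutation p = 0.0235, adjusted p = 0.188; rho = -0.356, permutation p = 0.177, adjusted p = 0.498), where r was -0.402 without the 2 OB libraries farthest from the median. In the 10 mice with high BST levels, Ttr in CBL and BST gave r = -0.496 (permutation p = 0.144, adjusted p = 0.575) and rho = -0.406 (permutation p = 0.249, adjusted p = 0.498), and r was 0.0132 without the 2 farthest BST libraries.

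**Figure D2:**
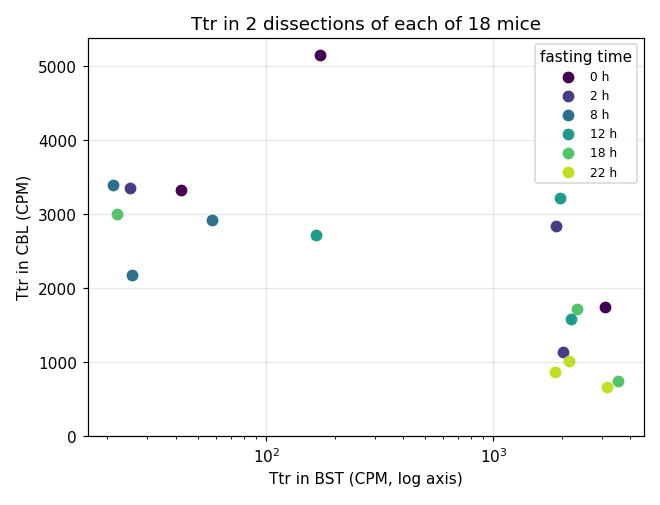
Ttr in CBL (CPM) against Ttr in BST (CPM, log axis), 1 point per mouse, colored by fasting time. The 8 mice at 21.2 to 173 CPM in BST lie at 2173 to 5151 CPM in CBL, and the 10 other mice lie at 653 to 3213 CPM.

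In CBL, all 8 genes were lowest in mean level at 22 h. Ttr measured 1743, 5151 and 3325 CPM in the 3 libraries at 0 h and 868, 653 and 1005 CPM at 22 h, and its means were 2442 ± 1158 CPM at 2 h, 2826 ± 613 CPM at 8 h, 2498 ± 839 CPM at 12 h and 1815 ± 1133 CPM at 18 h (SD, n = 3). Kl measured 33.2 to 84.8 CPM at 0 h and 12.1 to 18.6 CPM at 22 h, and Folr1 10.1 to 29.3 CPM and 3.20 to 5.39 CPM. The 22 h libraries lay below all 0 h libraries for these and for the other members, 8 of 8 in all, as they did for 14.1% of the 15976 genes kept in CBL. That comparison of ranges was chosen after the values were seen. At 18 h the spread was wide, and CBL 18 h replicate 1, with 737 CPM of Ttr and 15.1 CPM of Kl, was as low as the 22 h libraries.

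Against 0 h in CBL, 0 of 8 members passed the threshold at any time (edgeR quasi-likelihood test, Benjamini-Hochberg adjusted p under 0.05 and absolute log2 fold change over 1), with 0.676% of genes past it. At an unadjusted p under 0.05 there were 8 of 8, beside 39.6% of genes, and DESeq2 called 6 (Ttr, Kl, Folr1, Clic6, Aqp1 and Enpp2), beside 0.883%. The log2 fold change at 22 h was -2.03 ± 0.55 for Ttr (SE; edgeR adjusted p = 0.0598) and -2.20 for Folr1 (edgeR adjusted p = 0.0859). It was -2.08 for Aqp1, -2.02 for Kl, -1.65 for Slc4a5, -1.63 for Enpp2 and -1.13 for Clic6, with edgeR adjusted p from 0.0675 to 0.162. Without the fold threshold edgeR called 1 member, beside 3.97% of genes. It was Otx2, which fell by 0.61 in log2 at 22 h (edgeR adjusted p = 0.0340; 3 of 3 libraries below all at 0 h). That call was lost without CBL 0 h replicate 2 or 3, or without any of the 3 libraries at 22 h, where the value was -0.66 to -0.44 (edgeR adjusted p from 0.0550 to 0.166). In the joint test over the 6 times 0 of 8 members passed by edgeR, beside 2.99% of genes. That test gave 1 member at an unadjusted p under 0.05 (Otx2), beside 23.8% of genes, and 1 called by DESeq2 (Ttr, DESeq2 adjusted p = 0.0334), beside 11.1%. Without CBL 18 h replicate 1 edgeR called 2 members against 0 h, Ttr (edgeR adjusted p = 0.0392) and Aqp1 (edgeR adjusted p = 0.0376), and the same 2 were called without CBL 18 h replicate 2 (edgeR adjusted p = 0.0495 and 0.0486). No share of all genes is given here for these 2 fits, so their counts stand without a background. All CBL libraries shared a lane, but those at 0 h were the deepest, so depth and time cannot be told apart for that group.

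**Figure D3:**
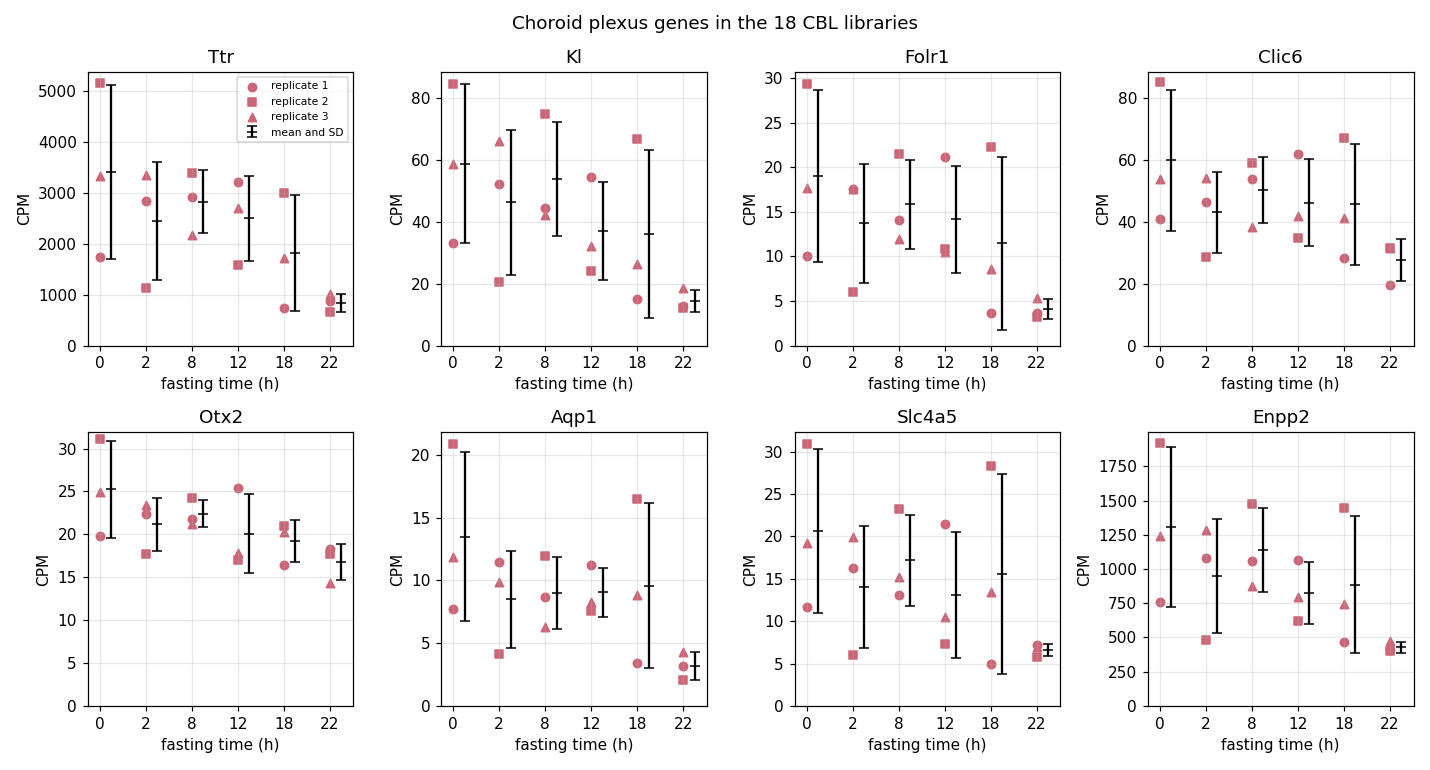
Level of each of the 8 genes (CPM) in the 18 CBL libraries by fasting time (h), with replicates as symbols and the mean with SD (n = 3) as black bars. For each gene the libraries at 22 h lie below those at 0 h, and Ttr is at 653 to 1005 CPM against 1743 to 5151 CPM.

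Other choroid plexus genes were followed in CBL too. Of the 18 of 19 listed genes kept, 2 fell at 22 h against 0 h, Wfdc2 by 2.08 in log2 (edgeR adjusted p = 0.0412) and Calml4 by 1.80 (edgeR adjusted p = 0.0416). The share of all genes past the threshold, at any fasting time and in either direction, was 0.676%. Of the listed genes, 0 passed the joint test by edgeR. The median log2 fold change at 22 h was -1.73 over that list and -1.84 over the members, and 0.00 over all genes. Medians were -0.40 for ependymal genes, -0.23 for meningeal genes, 0.39 for oligodendrocyte genes, 0.53 for endothelial genes and 0.01 for the cerebellar genes. The list sum ran from 95.1 CPM in CBL 22 h replicate 2 to 461 CPM in CBL 0 h replicate 2. The part of these cell types in the members' levels was not tested.

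In OB, 6 of 8 members passed the filter on low counts, all but Folr1 and Slc4a5. The joint test called 2 of them, Ttr (edgeR adjusted p = 0.0250) and Enpp2 (edgeR adjusted p = 0.0289), beside 15.4% of the genes tested. The same 2 had an unadjusted p under 0.05, beside 32.4% of genes. DESeq2 called Enpp2 alone, beside 22.5% of genes, and gave no p for Ttr. Enpp2 was 152.1, 138.2 and 211 CPM at 0 h, and its means at the later times were 121.6 to 133.96 CPM. For Ttr, OB 0 h replicate 3 held 3970 counts and 345 CPM, where the other 0 h libraries had 1.61 and 1.04 CPM and the next highest OB library, 2 h replicate 3, had 8.91 CPM. Without OB 0 h replicate 3 neither gene passed, nor without OB 8 h replicate 3 or OB 18 h replicate 1, and 1 passed without OB 8 h replicate 1. Replicate number as a block left Enpp2 alone (edgeR adjusted p = 0.0146), and with sequencing lane in the model 0 passed. The lane followed time in OB, with all 0 h and 2 h libraries in lane 3 and all from 12 h on in lane 4. Against 0 h, 0 members passed the threshold by edgeR, beside 0.544% of genes, with 3 at an unadjusted p under 0.05 (Ttr, Clic6 and Enpp2), beside 44.7%, and 0 by DESeq2, beside 0.43%. Without the fold threshold, which 12.1% of genes passed, Enpp2 passed at 18 h, where it fell by 0.44 in log2 (edgeR adjusted p = 0.0192), but not without OB 0 h replicate 3 or OB 18 h replicate 1. Ttr passed the threshold against 0 h when OB 0 h replicate 2 was left out, which left replicates 1 and 3 at 0 h. OB 0 h replicate 3 was also the highest OB library for Kl at 7.39 CPM, Clic6 at 7.91 CPM, Folr1 at 2.87 CPM, Otx2 at 1.91 CPM and Enpp2 at 211 CPM, though not for Aqp1. Its sum over the 19 other choroid plexus genes, 11 of them kept in OB, was the highest in OB at 244 CPM. Igfbp2 made 150.8 CPM of that sum, and its level reached 166.3 CPM in another OB library.

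In BRN, where the SD of Ttr was lower than in OB, CBL and BST, 0 of 8 members passed the joint test by edgeR, beside 0.00597% of genes, with 0 at an unadjusted p under 0.05, beside 16.6%, and 0 by DESeq2, beside 9.42%. Against 0 h, 0 passed by edgeR, beside 5.93% of genes. There were 4 at an unadjusted p under 0.05 (Ttr, Kl, Otx2 and Enpp2), beside 42.3% of genes, and DESeq2 called Kl alone, beside 12.7%. Kl was 25.9, 21.6 and 9.81 CPM at 0 h and 8.85, 3.81 and 4.38 CPM at 12 h, a log2 fold change of -1.55 (edgeR adjusted p = 0.0653). The edgeR calls against 0 h changed without BRN 18 h replicate 2 or 3. Each of these fits left 1 library at 18 h, assumed to vary like the other groups. Their calls are therefore not counted.

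In BST, where each group but those of 8 h and 22 h held libraries of both kinds, 0 of 8 members passed the joint test by edgeR, beside 0.107% of genes, with 0 at an unadjusted p under 0.05, beside 11.1%, and 0 by DESeq2, beside 1.26%. Against 0 h, 0 passed by edgeR, beside 0% of genes, with 3 at an unadjusted p under 0.05 (Ttr, Otx2 and Aqp1), beside 26.8%, and 0 by DESeq2, beside 0%. Ttr at 8 h measured 57.5, 21.2 and 25.8 CPM against 3083, 173 and 42.2 CPM at 0 h, a log2 fold change of -4.95 (edgeR adjusted p = 0.537), and the groups overlapped. In LIV, Ttr had means of 7157 to 8741 CPM over the 6 times. It passed neither the joint test (edgeR adjusted p = 0.571, beside 16% of genes) nor the threshold against 0 h, beside 4.16% of genes. For both, 0 was the count at an unadjusted p under 0.05, beside 35.2% of genes in the joint test and 50.9% against 0 h, and by DESeq2, beside 25.6% and 5.54%.

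Whether the time course differed among the 4 brain dissections was tested as an interaction of dissection and time. No fit of it had the mouse as a block, although the dissections came from the same mice. It was past the threshold for 1 of 8 members, Ttr (edgeR adjusted p = 0.00588), beside 21.2% of genes. The other members had edgeR adjusted p from 0.0512 for Enpp2 to 0.348 for Slc4a5, and 7 of 8 members had an unadjusted p under 0.05, beside 34.8% of genes. Ttr had its highest mean at 0 h in CBL, at 8 h in BRN and at 22 h in BST. In OB the mean was highest at 0 h through 1 library at 345 CPM, where the others of that time had 1.61 and 1.04 CPM and the mean at 2 h was 4.39 CPM. Without OB 0 h replicate 3, left out after the data were seen, 0 members passed (Ttr, edgeR adjusted p = 0.0740).

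Between dissections, with fasting time in the model, Ttr, Kl, Clic6, Otx2 and Enpp2 were higher in BRN, CBL and BST than in OB. Aqp1 was lower, so that all 6 members kept in OB passed in each comparison. Folr1 and Slc4a5 did not pass the filter on low counts in OB and were tested through the other dissections, so they are not counted here and no fold is given for them. The background was 24.8% of genes for BRN against OB, 24.4% for CBL against OB and 25.8% for BST against OB. The log2 difference of Ttr was 6.96 ± 0.84 for BRN (SE; higher in 16 of 16 mice), 8.05 ± 0.85 for CBL (18 of 18 mice) and 7.38 ± 0.85 for BST (17 of 18 mice), and without OB 0 h replicate 3 these were 8.99, 10.22 and 9.39. Mouse by mouse, BST was above OB in 13 of 18 mice for Clic6 and for Otx2, 17 of 18 for Kl and 18 of 18 for Enpp2. Aqp1 differed by -3.97 in BRN, -2.82 in CBL and -3.32 in BST (lower in all mice of each). CBL against BRN called 7 of 8, all higher in CBL, beside 31% of genes. Otx2 led with 2.37 ± 0.28 in log2 (16 of 16 mice; edgeR adjusted p = 1e-11), and Ttr, higher by 1.09 ± 0.62 in 13 of 16 mice, did not pass (edgeR adjusted p = 0.104). Without OB 0 h replicate 3, Ttr passed that comparison too, at 1.23 (edgeR adjusted p = 0.0163).

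BST against BRN called 3 of 8, beside 25.8% of genes: Slc4a5 with 2.13 in log2 (higher in 13 of 16 mice), Enpp2 with 1.49 (16 of 16 mice) and Kl with 1.48 (11 of 16 mice). BST against CBL called 1 of 8, beside 22.2% of genes, and that was Otx2, lower in BST by 1.94 ± 0.25 in log2 in 18 of 18 mice (edgeR adjusted p = 2.13e-10). With the mouse as a block in place of time, 3 were called there, Otx2 at -2.06, Clic6 at -1.10 and Folr1 at -1.10, and with library totals in place of TMM factors 2 were, Otx2 and Clic6. All CBL libraries were sequenced in lane 3 and all BST libraries in lane 4, so lane and dissection cannot be told apart between them.

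The members moved together within CBL. Beside the counts of members stand the shares of kept genes that correlated with Ttr, in either direction, at the unadjusted p where the adjustment over members drew its line, 0.0257 for r and 0.0114 for rho. All 7 others correlated with Ttr over the 18 CBL libraries, with Pearson's r from 0.839 to 0.973 (permutation test, adjusted p at most 1e-04; the smallest unadjusted p that the permutations allow is 1e-05) and Spearman's rho from 0.891 to 0.977 (permutation test, 7 of 7 past the adjusted threshold), beside 5.03% of genes by r and 3.04% by rho. Leaving out the 2 libraries farthest from the median of Ttr gave r from 0.855 to 0.968, and over the 15 libraries without those of 0 h r was 0.797 to 0.968. In BST, r was taken within clusters. Over the 10 high libraries all 7 passed with r from 0.715 to 0.871 (permutation test, adjusted p from 0.00521 to 0.0412), beside 2.97% of genes. Spearman's rho there was 0.673 to 0.782, with 1 of 7 past the adjusted threshold, beside 0.977% of genes, and 7 of 7 at an unadjusted permutation p under 0.05, and without the 2 farthest libraries r was 0.430 to 0.732. Over the 6 lowest libraries 0 of 7 passed by r or rho, beside 1.47% and 0.256% of genes, and 2 had an unadjusted exact p under 0.05 for r. In OB 3 of the 5 other members kept there passed by r and 0 by rho, beside 3.46% and 0.424% of genes. With Folr1 and Slc4a5, which were not kept, 4 of 7 passed by r and 0 by rho. Without OB 0 h replicate 3, 0 passed and the median r was 0.138, where it was 0.804 with all OB libraries. In lane 3, which held that library, 0 of 7 passed over 8 libraries, though the median r was 0.887. In lane 4, 0 passed over 10 libraries, with a median r of 0.0163. Leaving out the 2 farthest libraries gave r from -0.140 to 0.216 in OB. On deviations from time means, with OB 0 h replicate 3 kept, 6 of 7 passed by r and 3 by rho in OB. The 6 included Folr1 and Slc4a5, which were not kept there, and no share of genes was taken for deviations. In BRN 0 of 7 passed by r or rho, beside 6.46% and 2.63% of genes, 2 had an unadjusted permutation p under 0.05 for r, and r was 0.0880 to 0.523. On deviations from time means 4 of 7 passed by r and 4 by rho in BRN, but no share of genes was taken there, so these counts have no background. Adjustment was over 35 relations.

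Relative to Ttr in the same library, the other genes held narrower shares in CBL than in BST. Kl was 1.19 to 2.23% of the Ttr count there, Folr1 0.387 to 0.743%, Aqp1 0.289 to 0.550% and Slc4a5 0.387 to 0.944%. Clic6 went from 1.54 to 4.83%, Otx2 from 0.603 to 2.72%, and Enpp2 from 29.3 to 63.5%. In BST the ranges were wide, with Kl at 1.63 to 32.5% of Ttr, Slc4a5 at 0.545 to 15.0% and Enpp2 at 46.1 to 2657%. These shares compare counts without correction for gene length.

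Genes of like pattern were sought by Pearson's r with the mean centred log2 level of the 8 members over the libraries of each dissection, as a description. Among the 50 highest in at least 3 dissections were 1500015O10Rik, which encodes the secreted peptide augurin, Ace, the angiotensin-converting enzyme gene, Sostdc1, a gene of a secreted BMP and Wnt antagonist, and Drc7, of the dynein regulatory complex of cilia. In CBL the first were the claudin gene Cldn2 (r = 0.981), Kcnj13 (0.977), Calml4 (0.975), the carbonic anhydrase gene Car12 (0.975) and Tmem72 (0.974), followed by Mfrp, 1500015O10Rik, Lbp, Sema3b and Sostdc1, over 18 libraries. In BST they were 1500015O10Rik, Kcne2, Tmem72, Mfrp, Kcnj13, Car12, Sostdc1, Prr32, Cldn2 and Steap1, but the BST libraries lay in separate clusters. Such a split can bring r near its limit by itself, so no r is given for BST, and the names there may reflect the split alone. The 4 genes shared by 3 dissections were among the 50 highest in CBL as well. For 1500015O10Rik, Ace and Sostdc1, OB was another of the 3. The highest OB levels of 1500015O10Rik, Ace and Sostdc1, 8.87, 15.7 and 2.26 CPM, were those of OB 0 h replicate 3. Their place in OB may therefore reflect that library. Of the 19 listed choroid plexus genes, 18 were among the 50 in CBL, 2 in OB and 0 in BRN. The first in OB was Trim11 (r = 0.857) and in BRN Homez (r = 0.898, 16 libraries), and neither is on that list. Trim11 also had its highest OB level in OB 0 h replicate 3. Homez had its lowest BRN level, 12.1 CPM, in BRN 18 h replicate 2, the shallowest retained BRN library. Both places may therefore reflect a single library.

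Partners of the members were followed through fixed lists, at the threshold used between dissections. That threshold was passed by 24.8% of all genes for BRN, 24.4% for CBL and 25.8% for BST against OB, and by 22.2% for BST against CBL. Of 8 genes for carriers and receptors of thyroid hormone and retinol, Rbp4, the retinol-binding protein gene, was higher than in OB by 3.71 in log2 in BRN, 1.59 in CBL and 1.92 in BST. Of that list 3, 1 and 3 genes were higher there and 0 lower, with medians of 0.41, -0.25 and -0.30. None of 5 folate genes passed between dissections by edgeR, where 2 to 5 of them passed without the fold threshold. So did 75.4% of all genes for BRN, 70.4% for CBL and 75.5% for BST against OB, 79.5% for CBL and 75.8% for BST against BRN, and 71% for BST against CBL. Among 6 klotho partners, 4 of them kept, Fgfr3 was higher in BST than in CBL by 1.25, and Fgfr1 was higher in CBL than in BRN by 1.31. Of 10 fluid secretion genes, 0 were higher and 2 lower than in OB in BRN, 2 higher and 0 lower in CBL, and 4 higher and 2 lower in BST. Slc4a2, a bicarbonate exchanger gene, was higher than in OB by 1.05 in CBL and 1.92 in BST, and Slc4a10, a bicarbonate transporter gene, was lower by 1.36 in BRN and 1.33 in BST. In the autotaxin pathway of 9 genes, 8 of them kept, 4 were higher and 0 lower in BST than in CBL, with Plpp1 at 1.56 and the receptor gene Lpar1 at 1.07. All 6 oligodendrocyte genes were also higher in BST than in CBL, with a median of 1.54 in log2, and their part in these values was not tested. Against OB, 1 gene of the autotaxin pathway was higher and 2 lower in BRN, 0 higher and 3 lower in CBL, and 3 higher and 2 lower in BST. Of 3 roof plate homeobox genes, Msx1 was higher than in OB by 1.02 in BRN, 1.62 in CBL and 1.22 in BST. Lmx1a had a median of 0 CPM in OB and of 0.839, 2.31 and 1.98 CPM in BRN, CBL and BST, and medians of Otx1 were 0.309 CPM (CBL), 0.326 CPM (BST), 2.11 CPM (OB) and 3.65 CPM (BRN). All 3 neuron genes were kept in each dissection, and 1 was lower in CBL and in BST than in OB, in CBL and in BST than in BRN, and in BST than in CBL.

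Promoters are shown for members that moved together among CBL libraries. RefSeq promoters of 300 bases (GRCm38.p6) were at hand for 4 of 8 members, Kl, Otx2, Aqp1 and Slc4a5, with 7 promoters among them, 4 of these for Otx2. There was no entry for Ttr, Folr1, Clic6 and Enpp2. TAATCC, the word that OTX homeodomain proteins are known to bind, or its reverse complement GGATTA, was in 1 of the 7 and in 7.06% of 32851 promoters. TATAAA or TTTATA was in 2 of 7 and in 13.6% of all, CCAAT or ATTGG in 1 of 7 and in 37.4%, and GGGCGG or CCGCCC in 3 of 7 and in 35.7%. A match is a description of letters and not a site. Capitals mark these words in 1 Otx2 promoter, which holds GGATTA (chr14:48665060-48665359, minus strand), in that of Kl with GGGCGG and CCGCCC (chr5:150952357-150952656, plus strand), and in that of Slc4a5 with TTTATA and GGGCGG (chr6:83237125-83237424, plus strand).
Otx2: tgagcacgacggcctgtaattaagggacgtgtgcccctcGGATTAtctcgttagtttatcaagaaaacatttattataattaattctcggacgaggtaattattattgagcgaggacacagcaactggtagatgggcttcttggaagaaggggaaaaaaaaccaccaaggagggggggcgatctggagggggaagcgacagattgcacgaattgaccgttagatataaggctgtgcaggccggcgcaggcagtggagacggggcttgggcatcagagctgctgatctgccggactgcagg
Kl: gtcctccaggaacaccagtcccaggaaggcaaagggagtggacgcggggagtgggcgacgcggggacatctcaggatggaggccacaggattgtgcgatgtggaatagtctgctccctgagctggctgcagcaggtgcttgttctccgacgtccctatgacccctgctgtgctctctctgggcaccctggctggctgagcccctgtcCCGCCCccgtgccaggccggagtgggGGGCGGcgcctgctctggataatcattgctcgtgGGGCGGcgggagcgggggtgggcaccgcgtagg
Slc4a5: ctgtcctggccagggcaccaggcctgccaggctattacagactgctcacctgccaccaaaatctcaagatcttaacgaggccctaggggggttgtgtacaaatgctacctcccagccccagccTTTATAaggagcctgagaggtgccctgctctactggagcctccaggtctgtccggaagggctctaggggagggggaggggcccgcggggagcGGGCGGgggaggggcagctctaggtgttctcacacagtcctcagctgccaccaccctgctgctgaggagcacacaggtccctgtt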

How the data were processed

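The authors deposited raw counts (unit: counts per gene), which they made with TopHat2 2.1.1 on GRCm38.p5 and HTSeq 0.9.1. Coordinates and exon lengths came from a later release of the same build. Members and lists were chosen with earlier results of these data known. All 8 members were named, with up to 4 genes per list past a threshold, and 10 genes per dissection by likeness, those among the 50 highest in 3 dissections first. Genes were kept if at least 3 libraries reached the CPM that 10 counts make at median depth. Tests used edgeR 4.0.16 (TMM, robust quasi-likelihood, Benjamini-Hochberg over all kept genes) in R 4.3.3, with Python 3.11.15, pandas 2.3.3, scipy 1.17.1 and matplotlib 3.10.9. Correlations used log2(CPM + 1) and 100000 two-sided permutations, or exact ones under 10 libraries. BST was taken in clusters, which made 35 relations. Dissections were checked as paired by mouse: after removal of time means, profiles of the same mouse had a mean r of 0.0247 to 0.0623 between dissections. Alternatives were DESeq2 1.42.0, other size factors, no filter, no fold threshold, replicate, mouse, lane or library number in the model, other pseudocounts, and libraries left out. The 2 shallow BRN libraries were left out, as in earlier work on these data. Some values carry an extra digit, as rounded they coincide with index numbers in column names.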

Additional observations from a re-analysis of the deposited data

Results flagged for a closer look

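A test of the interaction itself called Ttr for a time course that differs among OB, BRN, CBL and BST (edgeR adjusted p = 0.00588, Benjamini-Hochberg over all genes kept), as 1 of 8 members beside 21.2% of genes. The call was lost without 1 library. Over the alternatives, none of which had the mouse as a block, the edgeR adjusted p ran from 0.00680 with library totals to 0.0740 without OB 0 h replicate 3, the library at 345 CPM. Mean Ttr at 0 h and at 22 h was 115.9 and 1.51 CPM in OB, 728 and 1005 CPM in BRN, 3406 and 842 CPM in CBL, and 1099 and 2389 CPM in BST. The mean in OB at 0 h rests on that library, since the others there had 1.61 and 1.04 CPM, and the log2 value of Ttr in OB at 22 h against 0 h was -6.24 with it and 0.15 without it. The mean in BST at 0 h rests on BST 0 h replicate 1 at 3083 CPM, beside 173 and 42.2 CPM, and the value there was 1.14 with all libraries and 4.50 without that one.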

How the results depend on the processing

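Low counts limit Folr1 and Slc4a5 in OB, where most libraries were at or under 3 counts. Most of the other results kept their direction and their side of the threshold. Of 31 member values by time, 31 did so with RLE size factors and 31 with the replicate block. The members called in the joint test of OB, 2 by edgeR, were 1 with DESeq2, 4 with no filter on low counts, 1 with the replicate block, 0 with lane as covariate, and 0 to 2 on leaving out single libraries. Against 0 h in OB, 0 became 2 with no filter, 1 with no fold threshold and 0 to 1 without single libraries. In BRN the joint count of 0 became 1 with no filter, and that against 0 h became 1 with DESeq2 and 1 with no filter. The count against 0 h also changed without the 2 BRN libraries near CBL, and without BRN 18 h replicate 2 or 3. Those fits left 1 library at 18 h and are not counted here. In CBL the joint count of 0 became 1 with DESeq2 and 1 with no filter, and that against 0 h became 6 with DESeq2, 1 with no fold threshold and 0 to 2 without single libraries. For tests by time without single libraries no share of all genes is given here. With the replicate block, Ttr in CBL at 22 h was -1.99 (edgeR adjusted p = 0.0921).

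Between CBL and BST, 1 member became 3 with the replicate block (animal) and 2 with library totals. On deviations from time means, correlations with Ttr in BRN, 0, became 4, and those in OB, 4, became 6, without a share of genes to set beside them. Some alternatives were chosen after seeing the data: correlations in OB, 4, became 0 in lane 3, 0 in lane 4 and 0 without OB 0 h replicate 3, and the interaction count of 1 became 0 without that library. The median r in OB, 0.804, was 0.887 over the 8 libraries of lane 3, so there the count fell while r did not. It was 0.0163 in lane 4 and 0.138 without OB 0 h replicate 3.

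Values that were not past a threshold changed sign as follows. Clic6 in BRN at 22 h was -0.093 with library totals, and Slc4a5 in BST against CBL was 0.0097 with DESeq2. On leaving out single libraries, log2 values at 22 h ran from -6.83 to 0.15 for Ttr, -1.21 to 0.12 for Kl and -0.27 to 0.11 for Aqp1 in OB. They ran from -0.13 to 0.31 for Clic6, -0.42 to 0.023 for Aqp1 and -0.37 to 0.043 for Enpp2 in BRN, and from -0.039 to 0.11 for Ttr in LIV. Where 1 BRN library was left at 18 h, it was assumed to vary like the other groups. Deviations from time means gave no value in BST. The cause was not tested.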

Other observations

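Marker genes of vessels and blood varied with time in OB. Of 6 endothelial genes 4 passed the joint test by edgeR in OB (Flt1, Kdr, Pecam1 and Vwf), as did 4 of 5 red cell genes, beside 15.4% of the genes tested, and the endothelial median at 22 h against 0 h was -0.85 in log2. The summed endothelial level in OB ran from 66.5 CPM in 12 h replicate 2 to 124.4 CPM in 0 h replicate 1, and the red cell sum from 42.5 CPM in 8 h replicate 2 to 243 CPM in 18 h replicate 1. The sequencing lane followed time in OB. Aqp1, which vessels and red cells also make, did not pass in OB (edgeR adjusted p = 0.838).

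In BRN, 5.93% of all genes passed against 0 h, with 1 of 4 folate genes kept, 1 of 10 fluid secretion genes and 2 of 19 other choroid plexus genes. At 18 h, where 2 libraries remained, the folate carrier gene Slc19a1 rose by 1.35 in log2 (edgeR adjusted p = 0.0486), Cox8b rose by 4.10 (edgeR adjusted p = 0.0331) and Car12 fell by 2.59 (edgeR adjusted p = 0.0331). These 2 libraries held 3045845 and 4987342 counts in lane 1, and those at 0 h 6149574 to 9578253 counts in lanes 5, 3 and 1. The 2 times also differed in the series of library numbers, and the part of series, lane and depth in these values was not tested. At 12 h Igfbp2 rose by 1.06 (edgeR adjusted p = 0.0419).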
